A study of Rattus norvegicus with 6 samples.

Results

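The 10 nuclear receptor genes described here are linked to the postnatal maturation of islets and were followed through the chromatin around them. They were the oestrogen-related receptors Esrrg and Esrrb, the thyroid hormone receptors Thra and Thrb, the retinoid X receptors Rxra and Rxrg, the peroxisome proliferator-activated receptors Ppara and Ppard, the glucocorticoid receptor Nr3c1 and the vitamin D receptor Vdr. Every accessible chromatin site (ACS) that the deposited table assigns to one of these 10 genes was taken, which gave 108 of 101603 distinct ACS. All 10 genes had at least 1 site, and every one of the 108 sites was tested.

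ATAC-seq, in which the Tn5 transposase inserts sequencing adapters where DNA is not covered by nucleosomes, was performed on dissociated, unsorted islet cells of Sprague-Dawley rats, with no treatment or genetic change given in the sources used here. The Adult group held 3 libraries from male rats of about 90 days. The P10 group held 3 libraries from litters of 10-day-old pups, each a mix of a few males and females. Age, sex and single rats against pooled pups therefore cannot be told apart.

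Nuclear receptors are transcription factors whose activity is mostly set by small lipid-soluble ligands. Thyroid hormone, vitamin D, fatty acid and retinoid receptors bind DNA as pairs with a retinoid X receptor, the glucocorticoid receptor acts mainly as a homodimer, and the oestrogen-related receptors have no known natural ligand. Thyroid hormone, glucocorticoids and Esrrg have each been tied to the acquisition of glucose-responsive insulin secretion after birth.

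The libraries held 7916919 to 11903909 integrations in ACS for Adult and 13491534 to 21168463 for P10, so the Adult values carry the larger counting error. The study's total reads per library overlapped between the groups. Set against those totals, integrations in ACS were fewer in each Adult library than in any P10 library. That difference goes with age, and its cause was not tested. The 10 genes took 0.0778 to 0.0930% of the integrations of a library. The ACS of the TSS class, those within 1 kb of a gene start, took 24.8 to 26.4% of Adult and 27.4 to 28.6% of P10 integrations. All 6 beta, 4 alpha and 2 delta cell marker genes had ACS, and Ppy, the hormone gene of PP cells, had none. Summed counts over marker genes did not overlap between the groups for alpha cells (582 to 685 CPM in Adult, 487 to 574 in P10, 1 of 4 genes called), duct cells (208 to 243 against 175 to 194, 1 of 3 called) and endothelial cells (495 to 587 against 448 to 474, 2 of 7 called). They overlapped for beta cells (848 to 991 against 808 to 1091) and for delta, acinar, mesenchymal, immune and proliferation genes. Among these, 1 beta gene was Up and 1 Down, 1 delta gene was Down and 2 acinar genes were Down. Of all genes, 8.71% were Up and 4.64% Down by their summed sites. Whether any of these short lists exceeds that share was not tested. In bulk islets, fewer cells of a type and less open chromatin per cell cannot be told apart, and the part of cell composition in the results was not tested.

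Promoter sequence differed widely among the genes. Of the 10 genes, 9 matched 14 RefSeq promoters of the GRCr8 build, from 250 bases before to 50 after a gene start. The GRCr8 build is not the Rn5 build of the ACS, so their positions were not joined. The promoters below are examples of high CpG content, the feature of GC-rich promoters that are open in many tissues, and of content near the median. Capitals mark CpG dinucleotides, of which the median promoter held 7.

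Rxra, chr3:31387642-31387941, plus strand: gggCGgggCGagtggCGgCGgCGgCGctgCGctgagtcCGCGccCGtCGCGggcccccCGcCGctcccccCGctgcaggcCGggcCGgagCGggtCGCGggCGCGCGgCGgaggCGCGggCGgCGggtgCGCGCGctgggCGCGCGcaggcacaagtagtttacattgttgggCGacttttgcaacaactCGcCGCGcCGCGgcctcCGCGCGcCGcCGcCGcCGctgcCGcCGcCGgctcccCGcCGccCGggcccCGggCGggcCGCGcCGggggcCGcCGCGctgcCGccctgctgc

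Thrb, chr15:10461397-10461696, minus strand: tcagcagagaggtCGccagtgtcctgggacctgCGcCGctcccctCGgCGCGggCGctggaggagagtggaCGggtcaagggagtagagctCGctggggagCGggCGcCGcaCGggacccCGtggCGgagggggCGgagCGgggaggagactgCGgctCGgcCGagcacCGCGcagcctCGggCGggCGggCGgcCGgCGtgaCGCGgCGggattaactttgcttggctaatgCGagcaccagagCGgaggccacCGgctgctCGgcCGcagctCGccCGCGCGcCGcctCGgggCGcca

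Esrrb, chr6:111738412-111738711, plus strand: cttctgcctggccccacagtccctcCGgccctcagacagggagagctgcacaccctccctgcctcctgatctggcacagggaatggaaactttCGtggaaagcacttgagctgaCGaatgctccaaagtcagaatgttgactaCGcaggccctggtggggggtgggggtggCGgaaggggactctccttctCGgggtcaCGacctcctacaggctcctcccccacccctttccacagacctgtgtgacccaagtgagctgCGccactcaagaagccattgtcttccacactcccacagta

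The Rxra window held 62 CpG and was 84.7% GC, and the Thrb window held 43 CpG and was 76% GC. The Esrrb window held 8 CpG at 60.3% GC. Rxra and Thrb had ACS at the gene start, and Esrrb had none within 10 kb of it. Whether CpG content and such sites go together was not tested. The Nr3c1 windows held 49 and 31 CpG, and that gene, whose listed start is uncertain, had no ACS of the TSS class. Its site with the highest mean CPM lies 1718 bp upstream of that start. The Vdr window held 16 CpG, above the median of 7, and Vdr had 1 ACS of that class. The half-site AGGTCA, the 6 bases that most of these receptors recognise, was searched on both strands, alone and as direct repeats of AGGTCA with 1, 3 or 4 bases of any kind between the copies. The extended half-site TCAAGGTCA of oestrogen-related receptors, which contains AGGTCA, and the glucocorticoid element, AGAACA and TGTTCT with 3 bases between them, were searched too. The half-site occurred in 16.2% of 33469 promoters of this length, and in 1 of the 14 promoters, an alternative start of Esrrg. There it lies 135 bases before the start as TGACCT, shown in capitals.

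Esrrg, chr13:101755510-101755809, plus strand: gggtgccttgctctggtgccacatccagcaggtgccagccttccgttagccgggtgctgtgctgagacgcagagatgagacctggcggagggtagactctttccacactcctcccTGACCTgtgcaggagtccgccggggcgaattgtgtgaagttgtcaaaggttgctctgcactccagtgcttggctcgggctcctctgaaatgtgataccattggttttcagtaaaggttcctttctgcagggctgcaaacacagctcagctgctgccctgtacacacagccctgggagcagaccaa

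The other motifs occurred in none of the 14 windows, and in 0.0538%, 0.0239% and 0.00598% (direct repeats spaced by 1, 3 and 4), 0.433% (extended half-site) and 0.0149% (glucocorticoid element) of all promoters.

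The sites that gained accessibility in Adult islets lay at Thrb (11 sites), Esrrg (3), Esrrb (1) and Rxra (1), those that lost it at Vdr (2), Esrrb (1) and Nr3c1 (1), and no gene start was called. Of the 108 sites, 16 were more accessible in Adult (Up) and 4 less (Down) at p under 0.05 and an FDR under 0.2 (edgeR quasi-likelihood test, adjusted over all ACS). That is 14.8% Up and 3.70% Down, beside 12.3% and 6.63% of all ACS in the same fit. The share called in all 10 genes together thus lay near the background of this fit. At the same limits the paper reports more ACS Down than Up, the reverse of the balance found here. The cause of that difference was not tested. The median log2 fold change of Adult over P10 was 0.08 for the 108 sites and -0.01 for all ACS. All Adult libraries lay above all P10 libraries at 16 sites and below them at 7, which is 14.8% and 6.48% of the 108 sites beside 13.8% and 10.9% of all ACS.

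**Figure D1:**
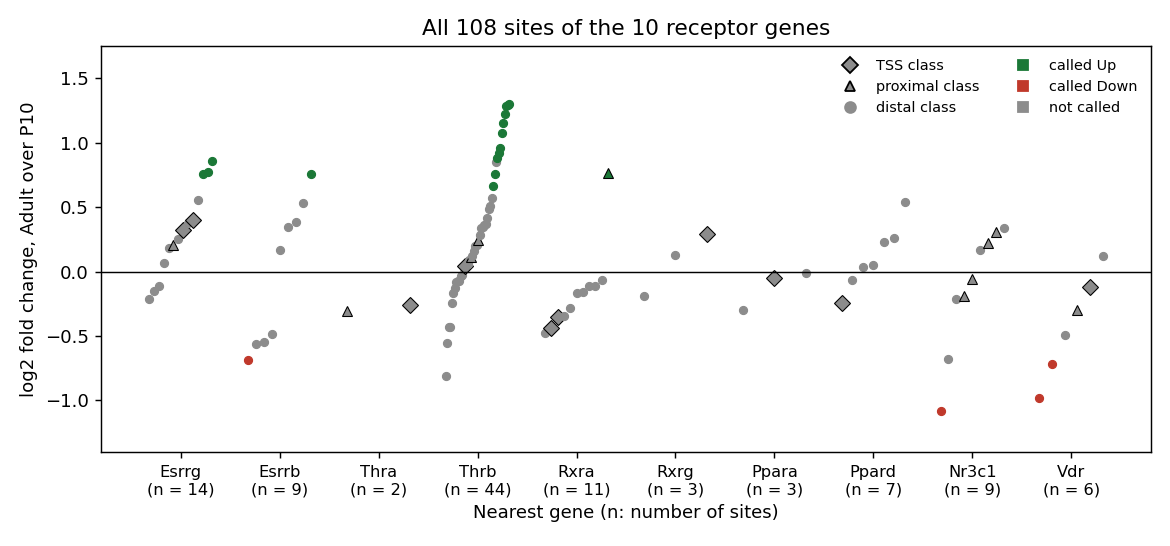
The log2 fold change of Adult over P10 (vertical axis) is plotted for each of the 108 sites by nearest gene, sorted by value within a gene, with the class of the site as the marker shape and the edgeR call as the colour. Thrb holds 11 of the 16 Up sites, and the diamonds of the TSS class, between -0.44 and 0.40, are all uncalled.

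Of the 20 called sites, 19 were distal (over 10 kb from the gene start) and 1 proximal (1 to 10 kb). Among the 88 distal sites 15 were Up and 4 Down, or 17.0% and 4.55%, beside 13.8% and 6.45% of all distal ACS. Among the 10 sites of the TSS class none was called by edgeR, none had an unadjusted p under 0.05, and limma voom and DESeq2 called none either. In that class 2.73% of all ACS were Up and 7.87% Down. The called sites lay inside the gene at 12 and upstream of it at 8. Limma voom called 16 and DESeq2 17 of the 20, and 9 of them, all Up, were called whichever library was left out. Thrb held 11 of 16 Up sites: without Thrb, 5 of 64 sites were Up (7.81%) and 4 Down (6.25%), with a median of -0.06.

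Thrb encodes the thyroid hormone receptor beta. With 44 sites it was at the 98.8th percentile of the number of ACS per gene, whose median was 3. The next listed genes lie 132497 bp away (Nr1d2, a haem-binding circadian repressor) and 870433 bp away (Rarb, a retinoic acid receptor), and a nearest-gene assignment does not show which gene a site acts on. In Thrb, 11 sites were Up (25.0%) and none was Down by edgeR, beside 12.3% and 6.63% of all ACS. Their log2 fold changes ran from 0.67 to 1.30 with a median of 1.08. The groups were apart at 10 of the 11, which were called on the same difference. Over all 44 sites, every Adult library was above every P10 library at 10 and below at 1, beside 13.8% and 10.9% of all ACS. The median over all 44 sites was 0.23 (-0.01 for all ACS), and 32 of them had a value above 0. Whether Thrb differs from other genes was not tested. Adjusted p of the 11 ran from 0.000515 to 0.192.

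The Up site with the smallest p (chr15:13350782-13351454, Rn5) lies 54932 bp upstream of Thrb. Its values were 16.4, 11.6 and 16.8 CPM in the Adult libraries and 5.67, 6.85 and 5.66 in the P10 libraries. The lowest Adult library was above the highest P10 library. The difference was 1.30 on the log2 scale (SE 0.24, adjusted p = 0.000515, edgeR), or 2.46-fold, and the call held in each of the 6 fits that left out a library. A site 22064 bp inside the gene (chr15:13273786-13274190) measured 7.59, 6.23 and 6.32 CPM in Adult and 2.84, 2.85 and 2.54 in P10, a log2 difference of 1.29 (SE 0.28, adjusted p = 0.00322, edgeR). The groups were again apart.

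The most accessible of the Up sites of Thrb (chr15:13311200-13311578) lies 15350 bp upstream. It measured 25.2, 19.0 and 17.9 CPM in Adult against 12.6, 9.20 and 10.1 in P10, a log2 difference of 0.96 (SE 0.21). The Up site farthest inside the gene, at 192124 bp (chr15:13103726-13104108), measured 7.32, 9.93 and 11.5 CPM against 4.93, 5.21 and 3.44, a difference of 1.08 (SE 0.27). Both kept their call whichever library was left out, and at neither did the groups overlap. These 2 sites, and the one at 22064 bp, were chosen for description after their values were seen.

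The start site of Thrb was not called, and whether it differs from the distal sites was not tested. The site (chr15:13295378-13296453) measured 37.4, 35.3 and 30.9 CPM in Adult and 39.6, 31.5 and 29.8 in P10. The groups overlapped, and the log2 difference was 0.04 (95% interval -0.31 to 0.39, adjusted p = 0.935, edgeR). The Thrb site with the highest mean CPM (chr15:13669730-13670789), 373880 bp upstream, measured 53.0, 44.6 and 52.5 in Adult against 44.4, 54.9 and 54.1 in P10. There the log2 difference was -0.03 (95% interval -0.36 to 0.30, adjusted p = 0.948, edgeR), and neither of these open sites was called.

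**Figure D2:**
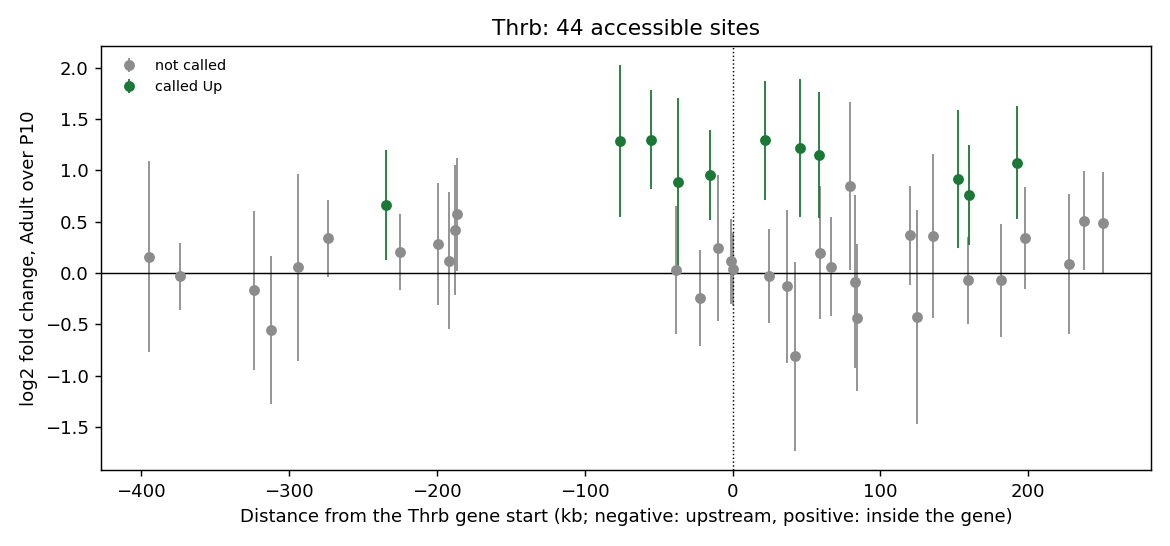
The log2 fold change of Adult over P10 (vertical axis) of the 44 Thrb sites is plotted against distance from the gene start in kb, with upstream to the left and the gene body to the right, and bars are 95% intervals of the edgeR fit. The 11 Up sites stand on both sides of the start, 7 of them within 100 kb, among sites near 0.

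Within 100 kb of the Thrb start 7 of 20 sites were Up (35.0%), from 100 to 200 kb 3 of 13 (23.1%), and beyond 200 kb 1 of 11 (9.09%). Of all ACS, whatever their distance, 12.3% were Up. The medians in the 3 ranges were 0.16, 0.36 and 0.16. The difference between ranges was not tested, and the ranges were not set against other ACS at the same distances. Neighbouring sites could differ. The Up site 58174 bp inside the gene had a log2 difference of 1.15, and the uncalled site 379 bp away had 0.20. Likewise the Up site at 159851 bp had 0.76, and the uncalled site 474 bp away had -0.07. Whether these neighbours differ from each other was not tested.

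Of the Thrb calls, 3 lay near the limit and were lost when a library was left out. The site 152677 bp inside was lost without P10 replicate 2 (0.74, adjusted p = 0.334, edgeR) or P10 replicate 3 (0.81, adjusted p = 0.261). The site 36686 bp upstream, the only one of the 11 that DESeq2 did not call, was kept only without Adult replicate 6, and its log2 difference was 0.93 without Adult replicate 4, 0.65 without Adult replicate 5, and 1.02, 0.61 and 1.04 without P10 replicates 1, 2 and 3. The site 234560 bp upstream was lost without Adult replicate 4 (0.58), Adult replicate 6 (0.56), P10 replicate 2 (0.54) or P10 replicate 3 (0.67). A further 3 Thrb sites had an unadjusted p under 0.05 with an adjusted p from 0.203 to 0.217, and all had values above 0.

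Thra, the other thyroid hormone receptor, had 2 sites, both within 10 kb of its start and both uncalled. The start site (chr10:86453228-86453607) measured 5.42, 6.72 and 4.90 CPM in Adult and 7.72, 6.35 and 6.34 in P10. The groups overlapped, and the log2 difference was -0.26 (95% interval -0.79 to 0.28, adjusted p = 0.644, edgeR). The Thra gene overlaps Nr1d1 in the annotation, so its sites can belong to either gene.

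Esrrg, an orphan receptor that drives genes of mitochondrial oxidative metabolism, was the only one of the 10 genes that edgeR called on the sum of its sites (voom and DESeq2 called Thrb too). Its 14 sites gave 108, 89.8 and 102 CPM in Adult and 86.7, 71.3 and 59.9 in P10. Each Adult library was above each P10 library, and the sum was 1.37-fold higher in Adult (log2 0.46, SE 0.14, adjusted p = 0.0672, edgeR). The call rests on the same difference. Among all 14776 genes with sites, 8.71% were Up and 4.64% Down by the sum. The call was lost without Adult replicate 4 (0.40, adjusted p = 0.209), P10 replicate 2 (0.43, adjusted p = 0.218) or P10 replicate 3 (0.32, adjusted p = 0.236), and voom and DESeq2 made it.

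In Esrrg, 3 sites were Up, all deep inside the gene, and none was Down. The first (chr13:110939316-110940062), 169924 bp from the start, measured 30.7, 20.5 and 21.7 CPM in Adult and 16.4, 15.6 and 11.3 in P10. The groups were apart, with a log2 difference of 0.75 (SE 0.21, adjusted p = 0.0214, edgeR), and no left-out library ended the call. The second (chr13:111004157-111004547), at 234765 bp, measured 17.6, 15.7 and 14.4 against 13.2, 8.27 and 6.45. The difference was 0.77 (SE 0.24, adjusted p = 0.0429, edgeR), and without P10 replicate 3 it was 0.55 and not called. The third (chr13:110984483-110985055), at 215091 bp, measured 12.02, 4.87 and 7.73 against 5.11, 4.78 and 3.75. The groups overlapped at that site. Its difference of 0.86 (SE 0.29, adjusted p = 0.0689, edgeR) fell to 0.46 without Adult replicate 4 and to 0.71 without P10 replicate 3, and was then not called.

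Both start sites of Esrrg were of low accessibility. The one over the start (chr13:110769132-110769468) measured 3.89, 3.99 and 4.51 CPM in Adult and 4.04, 3.14 and 2.64 in P10, and the one 137 bp inside (chr13:110769529-110769817) measured 3.16, 5.06 and 3.09 against 3.39, 3.35 and 1.903. The groups overlapped at both, with log2 differences of 0.32 (95% interval -0.30 to 0.95) and 0.40 (-0.29 to 1.09) that were not called. The upper ends of these intervals reach past the values of the called distal sites.

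Esrrb, an orphan receptor known from pluripotent cells, had 9 distal sites, none within 10 kb of its start. The Up site 19663 bp upstream (chr6:119688763-119689152) measured 7.32, 4.58 and 4.13 CPM in Adult and 2.84, 3.07 and 3.65 in P10. The groups were apart (log2 0.76, SE 0.30, adjusted p = 0.130, edgeR), and the call was lost without Adult replicate 4 (0.45), P10 replicate 1 (0.66) or P10 replicate 2 (0.71). The Down site 138698 bp upstream (chr6:119569728-119570165) measured 5.06, 4.38 and 4.64 in Adult and 10.5, 7.70 and 4.55 in P10, and the groups overlapped. Its log2 difference of -0.69 (SE 0.29, adjusted p = 0.158, edgeR) was called only in the fit without P10 replicate 3 among those that left out a library, and was -0.38 without P10 replicate 1. It was -0.75, -0.64 and -0.68 without Adult replicates 4, 5 and 6 and -0.70 without P10 replicate 2, and voom did not call it. The site of Esrrb with the highest mean CPM, 36313 bp upstream, measured 7.86, 8.57 and 9.67 against 7.53, 7.99 and 7.67, a log2 difference of 0.17 with overlapping groups.

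**Figure D3:**
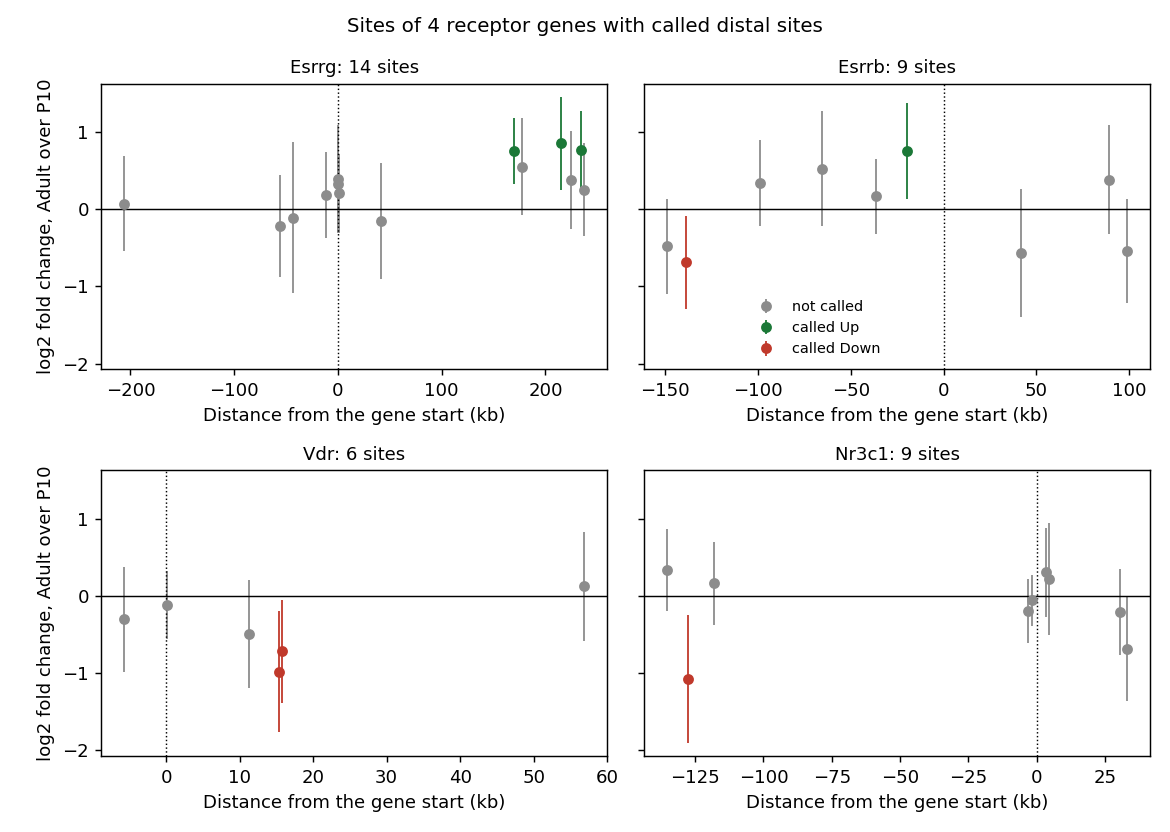
The log2 fold change of Adult over P10 (vertical axes) is plotted against distance from the gene start in kb for the sites of Esrrg, Esrrb, Vdr and Nr3c1, with upstream to the left and 95% intervals of the edgeR fit as bars. The 3 Up sites of Esrrg lie over 150 kb inside the gene and the 2 Down sites of Vdr next to each other about 15 kb inside.

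The retinoid X receptors, the shared partners of the thyroid hormone, vitamin D and fatty acid receptors, had 1 called site between them. Rxra had 11 sites, and 10 of them had a value below 0. Its start sites (chr3:11569868-11570302 and chr3:11570633-11571113) measured 5.96, 6.52 and 6.57 CPM in Adult against 7.53, 8.34 and 8.41 in P10, and 4.25, 4.38 and 3.74 against 6.23, 5.99 and 4.60. At both, each Adult library was below each P10 library, but neither was called (log2 -0.35, adjusted p = 0.458, and -0.44, adjusted p = 0.403, edgeR). Of all ACS, 10.9% had every Adult library below every P10 library, and these start sites lie only 330 bp apart. The Rxra site with the highest mean CPM, 69488 bp inside, measured 10.9, 7.11 and 9.41 against 12.9, 9.91 and 7.98, a log2 difference of -0.17 with overlapping groups.

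The called Rxra site (chr3:11577495-11577742), 6858 bp inside the gene, went the other way. It measured 9.22, 4.97 and 3.48 CPM in Adult and 4.83, 3.28 and 2.38 in P10, with overlapping groups. The log2 difference of 0.76 (SE 0.34, adjusted p = 0.177, edgeR) was 0.28 without Adult replicate 4, 0.69 without P10 replicate 2 and 0.52 without P10 replicate 3, none of them called. Neither voom nor DESeq2 called it. Rxrg had 3 sites and none was called. Its start site (chr13:90460055-90460751) measured 19.8, 15.2 and 17.9 CPM in Adult and 12.9, 15.3 and 15.0 in P10, a log2 difference of 0.29 (95% interval -0.12 to 0.71) with overlapping groups.

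The fatty acid receptors had no called site. Ppara, which activates fatty acid oxidation in fasting, had 3 sites with values from -0.30 to -0.01. Its start site (chr7:126330000-126330862) was close in both groups, at 24.9, 25.9 and 25.0 CPM in Adult and 24.8, 28.3 and 25.3 in P10 (log2 -0.05, 95% interval -0.41 to 0.31). Ppard, its widely expressed relative, had 7 sites with values from -0.24 to 0.54. The Ppard start site (chr20:10018030-10018516) measured 13.4, 9.64 and 10.4 against 14.8, 14.9 and 10.0 (log2 -0.24, 95% interval -0.71 to 0.23), with overlapping groups.

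Nr3c1, the receptor of corticosterone and cortisol, had 9 sites, of which 1 was Down. The annotation gives this gene a span of 939739 bp that overlaps Arhgap26, Fgf1 and Spry4, so which gene its sites belong to, and their distance to a start, are uncertain. The Down site (chr18:32476272-32476618), 127792 bp upstream, measured 1.17, 1.17 and 0.902 CPM in Adult and 1.72, 2.92 and 2.38 in P10. The groups were apart at this low level (log2 -1.08, SE 0.40, adjusted p = 0.1001, edgeR), and the call was lost without Adult replicate 6 (-0.98), P10 replicate 2 (-0.92) or P10 replicate 3 (-1.08). The Nr3c1 site with the highest mean CPM (chr18:32350198-32351492), 1718 bp upstream, measured 53.9, 51.0 and 41.3 CPM in Adult and 55.5, 49.9 and 46.9 in P10. It did not differ beyond its spread (log2 -0.06, 95% interval -0.39 to 0.27).

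Vdr, which controls calcium-handling genes, had 6 sites, of which 2 were Down and none Up. The Down sites lie 219 bp from each other, about 15 kb inside the gene. The site at 15282 bp (chr7:139570646-139570866) measured 1.898, 2.05 and 1.80 CPM in Adult and 6.14, 2.92 and 2.22 in P10. The groups were just apart (log2 -0.98, SE 0.38, adjusted p = 0.117, edgeR), but the difference was -0.42 without P10 replicate 1, and it was not called then nor without Adult replicate 4 (-0.97) or Adult replicate 6 (-0.94). The site at 15758 bp (chr7:139570170-139570426) measured 2.98, 2.92 and 4.51 against 7.72, 3.14 and 5.92, with overlapping groups. Its difference of -0.72 (SE 0.33, adjusted p = 0.196, edgeR) was called by neither voom nor DESeq2, and not without Adult replicate 4 (-0.62), Adult replicate 5 (-0.61), P10 replicate 1 (-0.43) or P10 replicate 3 (-0.69). At both sites P10 replicate 1 was the highest library. The Vdr start site (chr7:139585882-139586446) measured 20.9, 17.0 and 12.2 CPM in Adult and 20.4, 19.4 and 15.0 in P10 (log2 -0.12, 95% interval -0.56 to 0.32).

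**Figure D4:**
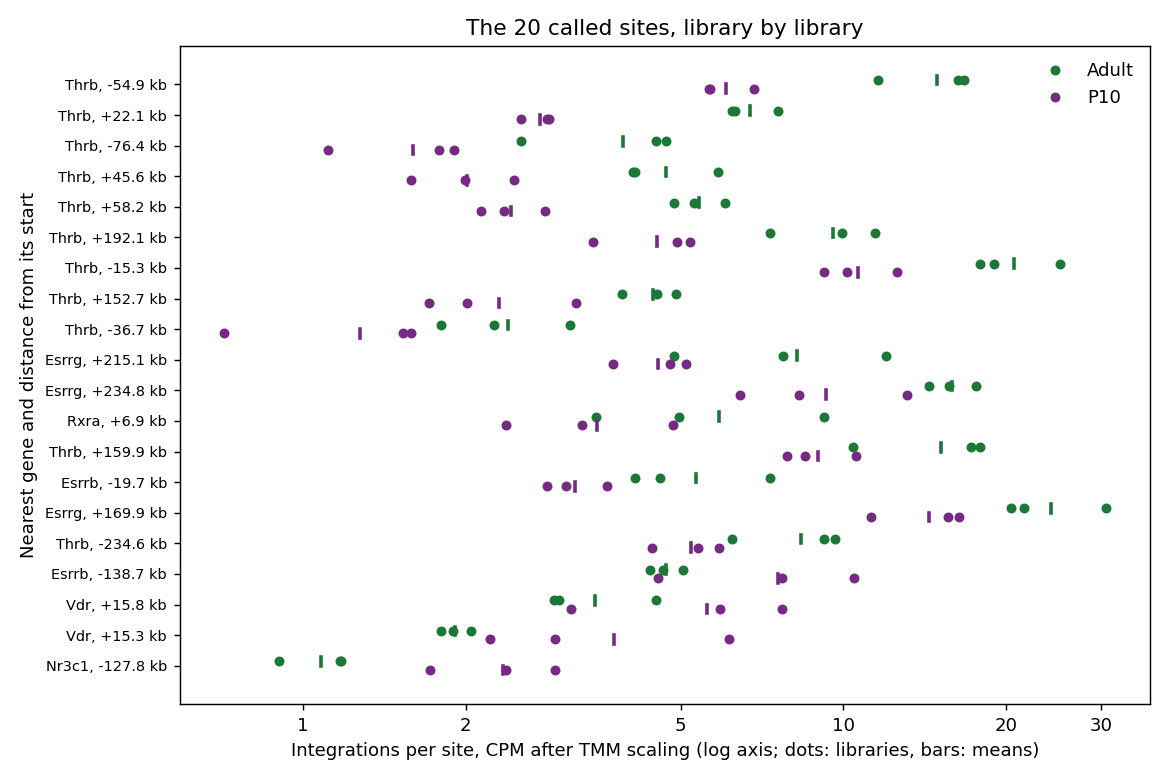
Integrations per site in CPM (horizontal log axis) are plotted for the 20 called sites, named by nearest gene and distance from its start in kb, with 1 dot per library, a bar at the mean of each group and sites ordered by log2 fold change. The groups are apart at 15 of the 20 sites, at 13 of the 16 Up and 2 of the 4 Down sites. The sites were called on the same difference, so this is no separate result.

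Per kb of site, the Thrb start site was the most accessible of the 10 sites of the TSS class in Adult. It measured 32.1 ± 3.06 CPM per kb (SD, n = 3), against 31.2 ± 4.87 in P10. The sites of Vdr (29.6 ± 7.65 in Adult) and Ppara (29.3 ± 0.659) followed within that spread, then Rxrg (25.3 ± 3.32) and Ppard (22.9 ± 4.04), which overlapped each other. The start sites of Thra (14.9 ± 2.47), Rxra (14.6 ± 0.779 and 8.57 ± 0.706) and Esrrg (13.1 ± 3.87 and 12.3 ± 0.994) were lower. No site of the TSS class was assigned to Esrrb or Nr3c1. The Nr3c1 site 1718 bp upstream of its uncertain listed start, with 48.7 CPM in Adult over 1295 bp, was therefore not ranked.

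Summed over all sites of a gene, the values of the other 9 genes were not called. The Thrb sum was 519, 401 and 471 CPM in Adult and 405, 364 and 362 in P10, and the lowest Adult library lay just below the highest P10 library. Its log2 difference was 0.30 (95% interval 0.02 to 0.57, adjusted p = 0.228, edgeR), which voom (adjusted p = 0.196) and DESeq2 (adjusted p = 0.0939) called Up, as did edgeR without Adult replicate 5 (0.39) or P10 replicate 1 (0.34). The Vdr sum was 34.2, 30.1 and 27.5 CPM against 45.6, 36.7 and 30.9, a log2 difference of -0.30 (95% interval -0.65 to 0.05) that edgeR called Down without P10 replicate 3 (-0.44). For the remaining 7 genes the log2 difference lay between -0.28 (Thra) and 0.21 (Rxrg), each with an interval that holds 0.

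**Figure D5:**
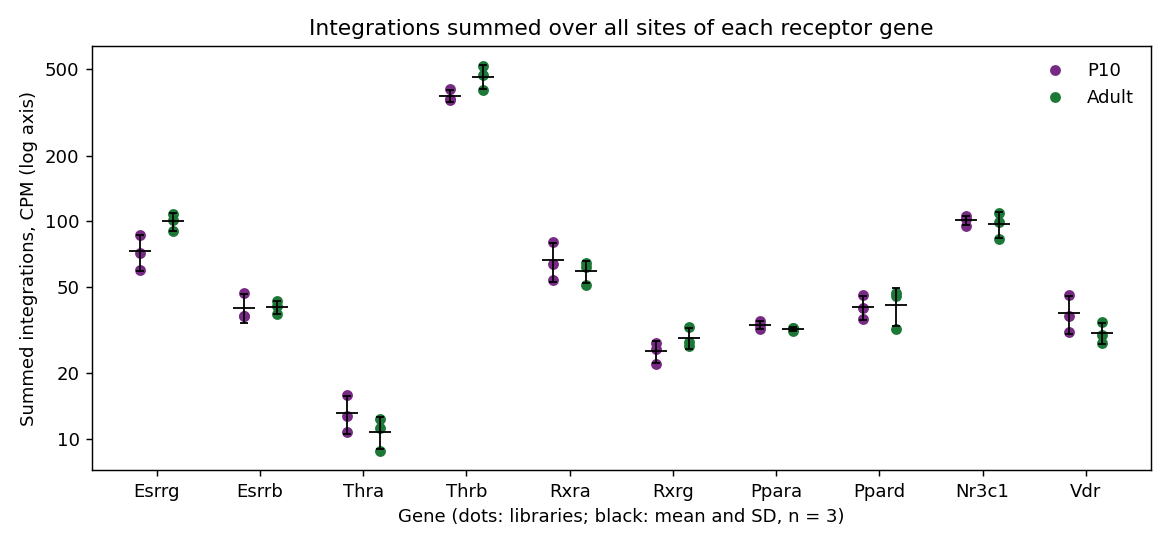
Integrations summed over all sites of each of the 10 genes are plotted in CPM (vertical log axis), with 1 dot per library and black marks for the mean and SD of 3 libraries. Esrrg is the only gene whose Adult libraries all lie above its P10 libraries, and the level of a sum reflects the number of sites of the gene.

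Split by class, edgeR called 3 sums of the 10 genes, all of distal sites: those of Esrrg and Thrb Up and that of Vdr Down. Of all sums per gene and class, 10.4% were Up and 6.61% Down. In neither direction was the share called among the class sums of the 10 genes above that background. The distal sum of Esrrg was 83.9 ± 9.92 CPM in Adult and 59.5 ± 11.1 in P10 (SD, n = 3; log2 0.50, adjusted p = 0.0469, edgeR), and without P10 replicate 3 it was 0.37 and not called. The distal sum of Thrb was 407 ± 54.4 against 324 ± 18.2 (log2 0.33, adjusted p = 0.168, edgeR), and it was called without Adult replicate 5 (0.43) or P10 replicate 1 (0.37) but not without Adult replicate 4 (0.24), Adult replicate 6 (0.31), P10 replicate 2 (0.29) or P10 replicate 3 (0.30). The distal sum of Vdr was 11.3 ± 1.23 against 16.3 ± 4.31 (log2 -0.54, adjusted p = 0.160, edgeR), and was lost without Adult replicate 4 (-0.52), Adult replicate 5 (-0.47) or P10 replicate 1 (-0.30). In all 3 the groups did not overlap, and voom and DESeq2 called them too. The sums were called on the same difference, so the lack of overlap is no separate result. DESeq2 also called the proximal sum of Rxra Up (0.76 on the log2 scale by edgeR), which is its 1 proximal site described above.

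The wider receptor network was read through 4 gene lists, chosen with earlier results of these data known. Of 33 other nuclear receptors with sites, 4 were Up by the summed sites (Nr2c1, Nr3c2, Nr5a1 and Rorb) and 1 was Down (edgeR), or 12.1% and 3.03%, near the 8.71% and 4.64% of all genes. DESeq2 called 6 Up and 1 Down. The log2 differences were 0.56 for the orphan receptor Nr2c1, 0.91 for Nr5a1, the steroidogenic factor, and 0.43 for the orphan receptor Rorb. The median over the list was -0.04, and over all genes -0.01. Nr3c2, the mineralocorticoid receptor that also binds glucocorticoids, rose by 0.37 on the log2 scale (SE 0.13, adjusted p = 0.103, edgeR). The Down gene was Rxrb, the third retinoid X receptor (14.9 ± 2.16 CPM in Adult, 21.5 ± 3.33 in P10, SD, n = 3; log2 -0.53, adjusted p = 0.137, edgeR). The neighbours of Thrb gave 0.28 (Nr1d2, 10 of 29 sites Up and 1 Down) and 0.25 (Rarb, 4 of 19 sites Up and none Down). Neither sum was called by edgeR or voom, and DESeq2 called that of Nr1d2 Up.

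Of 16 coregulators, 3 were Up (18.8%) and none Down by edgeR, beside 8.71% and 4.64% of all genes, with a median of -0.01. Ppargc1a, the coactivator that works with oestrogen-related and peroxisome proliferator-activated receptors on mitochondrial genes, had 263 ± 24.8 CPM in Adult and 198 ± 20.3 in P10 (SD, n = 3; log2 0.40, adjusted p = 0.0684, edgeR). Its relative Ppargc1b gave 0.34 (adjusted p = 0.180, edgeR) and the corepressor Nrip1 gave 0.33 (adjusted p = 0.188, edgeR). All 3 had Adult libraries above all P10 libraries, but they were called on the same difference, so this is no separate result. Of the 24 sites of Ppargc1a, 6 were Up and 4 Down. The call held in 4 (Ppargc1a), 2 (Ppargc1b) and 1 (Nrip1) of the 6 fits that left out a library, and voom did not call Ppargc1b.

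Of 27 genes with sites in the list for ligand supply and transport, 2 were Up (7.41%) and 3 Down (11.1%) by edgeR. That compares with 8.71% and 4.64% of all genes, and the median was 0.03. Dio1, Dio2 and Dio3 of that list had no ACS. DESeq2 called 3 Up and 4 Down. Rdh10, which makes retinal from retinol, rose (log2 0.64, adjusted p = 0.0115, edgeR), as did the fatty acid carrier Fabp1 (0.57, adjusted p = 0.1004). Aldh1a1, which makes retinoic acid from retinal, fell (-0.85, adjusted p = 0.00318, edgeR), as did the retinol carrier Rbp4 (-0.65, adjusted p = 0.0567). The fifth was Thrsp, a thyroid hormone-responsive lipogenic gene (-1.34, adjusted p = 0.0481, edgeR), which the list of target genes holds too. It neither supplies nor carries a ligand, so the Down share of this list counts 1 gene that belongs with the targets.

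Of 35 known receptor target genes, 3 were Up and 3 Down by edgeR (8.57% each), beside 8.71% and 4.64% of all genes, with a median of -0.0040. DESeq2 called 3 Up and 5 Down. Pdk4, a kinase that restrains glucose oxidation and a target of Ppara, Ppard and Esrrg, rose by 0.46 on the log2 scale (adjusted p = 0.0484, edgeR), and the glucocorticoid-induced kinase Sgk1 rose by 0.49 (adjusted p = 0.0474). The calcium channel Trpv6, a vitamin D target, gave 0.68 (adjusted p = 0.102, edgeR) with overlapping groups. The other vitamin D target called, the calcium-binding S100g, fell (-0.84, adjusted p = 0.0463, edgeR), and so did Klf9, a target of both thyroid hormone and glucocorticoid receptors (-0.35, adjusted p = 0.102). Of the 18 called genes of the 4 lists, 5 (Nr5a1, Rdh10, Aldh1a1, Thrsp and S100g) kept their call whichever library was left out, and the others in 1 to 5 of the 6 fits.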

How the data were processed

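Per the labels and the study's methods, the authors aligned the reads with BWA 0.7.13 to the rat build Rn5, removed mitochondrial reads and those with a mapping quality under 30, called peaks with MACS2 2.1.1 on the pooled libraries of each age, joined both peak sets into ACS and counted Tn5 integrations per ACS and library with pyDNase. Removal of PCR duplicates is not given in the sources used here. The deposited values are raw counts. The same table also holds the authors' own edgeR comparison (log2 fold change, log CPM, F, p-value and FDR), which was not used. Each ACS carries its nearest gene, distance and class.

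Of 101941 entries, 338 repeated an ACS and were left out of the test per ACS. The sums per gene, and per gene and class, kept all entries. Counts were scaled by TMM and tested with edgeR 4.0.16 (quasi-likelihood F test, Adult against P10, 3 libraries each, R 4.3.3), with Benjamini-Hochberg adjustment over all ACS, and again on counts summed per gene, and per gene and class. CPM in the text are integrations scaled to the TMM library size of ACS counts. SE is the log2 fold change over the square root of F, and intervals are 95%. The edgeR p-values set the difference between Adult and P10 against the spread of libraries within a group, which is moderated over all ACS or sums. Alternatives used limma 3.58.1 and DESeq2 1.42.0, other library sizes, filters and limits. The code was tested on simulated counts. Motifs were exact matches in RefSeq GRCr8 promoters. The members and lists were chosen with earlier results of these data known. Values per library were given for all sites of the TSS class, for the called Up and Down site with the smallest p and the site with the highest mean CPM of each gene, and for all called sites of genes with 5 or fewer. Genes of the lists were named where their sum was called. Figures were drawn with matplotlib 3.10.9.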

Additional observations from a re-analysis of the deposited data

How the results depend on the processing

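The scale of the libraries decided most. With the study's total reads as library sizes the median of all ACS moved to -0.84, with 1062 ACS Up and 61663 Down, 11 genes Up and 12745 Down by sums, 0 of the 108 sites Up and 55 Down, 0 Thrb sites Up, 0 of the 10 genes Up and 9 Down, and 0 of their class sums Up and 18 Down. The receptor sums then reversed to -0.41 (Esrrg), -0.86 (Esrrb), -0.55 (Thrb), -0.61 (Rxrg) and -0.81 (Ppard), against a median of -0.85 over all genes, so Esrrg stood 0.44 and Thrb 0.30 above it. The distal sums became -0.52 (Thrb) and -0.38 (Esrrg), the Esrrg sites -0.54 and -0.46 (start), -0.10 (169924 bp) and -0.12 (234765 bp), the Esrrb sites -0.051 (19663 bp) and -0.67 (36313 bp), the Rxra site at 6858 bp -0.10, and the starts of Thrb -0.82 and Rxrg -0.53. With column sums the median was -0.10, with 10447 ACS Up and 10732 Down, or 10.3% and 10.6%, beside 12.3% and 6.63% in the main test. Then 2182 genes and 1 of the 10 were Down by sums, and 1 class sum of the 10 genes was Up and 2 Down. Values reversed with column sums at the Thrb start (-0.053) and for the sums of Esrrb (-0.089) and Ppard (-0.057), with cyclic loess at the Thrb start (-0.033) and with median-of-ratios factors for Esrrb (-0.0079), all uncalled in the main test.

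At an FDR under 0.05, 7177 ACS were Up and 1945 Down, 421 genes Up and 124 Down, 10 of the 108 sites Up and 0 Down, and 0 of the 10 genes, 1 class sum Up and 0 Down. Sites Down were 2 with cyclic loess, 1 with voom and 2 at a mean of at least 50 counts, where 4410 ACS were Down and 7 Thrb sites Up. Both voom and DESeq2 called 2 of the 10 genes Up, and DESeq2 1086 genes Down. Without the distal class 0 of the 10 genes were Up, and the Ppard sum was -0.24.

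Leaving out each library gave 7973 to 13232 ACS Up and 3285 to 7215 Down, 394 to 2065 genes Up and 195 to 938 Down, 10 to 20 of the 108 sites Up and 1 to 4 Down, 8 to 15 Thrb sites Up, 0 to 2 of the 10 genes Up and 0 to 1 Down, and 0 to 3 of their class sums Up and 0 to 1 Down. The lowest count of Up sites came without P10 replicate 3. Values that crossed 0 were uncalled in the main test and ranged from -0.054 to 0.16 (Thrb start), -0.31 to 0.054 (Vdr start), -0.14 to 0.046 (Thrb at 373880 bp), -0.34 to 0.024 (Rxra at 69488 bp), -0.14 to 0.047 (Nr3c1 at 1718 bp), and in sums -0.075 to 0.12 (Esrrb), -0.064 to 0.19 (Ppard) and -0.15 to 0.044 (Nr3c1). The cause of these changes was not tested. No paired analysis was possible because the replicate numbers are not shared between the groups. With 3 libraries a group and as few as 12.3 counts a library at a site, the values of weakly accessible sites carry a large counting error, although some of them were called.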
